A study of Mus musculus with 12 samples.

Results

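The medial ganglionic eminence (MGE) and the lateral ganglionic eminence (LGE) are neighbouring swellings of the ventral forebrain, and their H3K4me3 peak lists were compared gene by gene and peak by peak. Trimethylation of histone H3 at lysine 4 (H3K4me3) marks promoters that are in use or held ready, and it was mapped by CUT&Tag, in which a transposase tethered to an antibody cuts and tags the marked chromatin. All tissue came from wild-type C57BL/6J mouse embryos, with no transgene, deletion or treatment, and tissue of several embryos was pooled without selection by sex. The MGE was represented by 3 libraries from 2 replicates and the LGE by 2 libraries from 2 replicates, which makes 5 of the 12 libraries of the series. The age was E12.5 (embryonic day), although the labels' account of the dissection mentions E14.5 embryos too, and it says that equal numbers of nuclei from the regions were pooled although each library is named for a single region. The caudal ganglionic eminence (CGE, 4 libraries) and the cortex (CTX, 3 libraries) appear here only beside this pair. The authors merged the replicates of a region before calling peaks, so each region has 1 list, no value below has a replicate error, and no test between regions was possible. The MGE list held 25339 peaks and the LGE list 17284, together 42623 of the 81817 peaks in the 4 lists.

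The eminences are germinal zones for GABAergic cells. The MGE, patterned by Sonic hedgehog and Nkx2-1, produces cortical and striatal interneurons and cholinergic neurons, whereas the LGE produces the projection neurons of the striatum and interneurons of the olfactory bulb. The LGE borders the pallium, the dorsal territory that produces glutamatergic cortical neurons under Pax6, Emx and Neurog factors. H3K4me3 usually sits as a narrow peak over a transcription start site (TSS), and it can spread over several kilobases at genes that define a cell's identity.

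The lists differed in grain before any gene was considered. MGE peaks had a median width of 563 bp and covered 17.1 Mb in all, whereas LGE peaks had a median width of 1168 bp and covered 21.6 Mb. The narrowest MGE peak was 114 bp wide and the narrowest LGE peak 243 bp, and the smallest distance between neighbouring peaks was 457 bp in the MGE list and 977 bp in the LGE list. The CGE list had a grain near that of LGE (median width 1240 bp, smallest distance 972 bp), and the CTX list a grain near that of MGE (701 bp and 492 bp). The study states fewer reads for the MGE libraries than for the LGE libraries. For a cortex replicate it states more reads than for either LGE library. The number it prints for the other cortex replicate is malformed and cannot be read with certainty. The narrowest peak was 242 bp in CGE and 122 bp in CTX, so narrowest width and smallest distance rose together over the lists. Whether the caller's smallest length or joining distance differed between lists is not stated in the sources used here. The parts of depth and of such settings were not tested. Neither can be told apart here from a difference in the breadth of the mark. Because the grain differed, genes were ranked within each list. Peak-covered bases within 5 kb of any annotated TSS of a gene were turned into a percentile among the 21938 protein-coding genes of chromosomes 1 to 19, X and Y, and the LGE percentile was subtracted from the MGE percentile. A gene with no covered base sits at percentile 17.5 in MGE and 17.9 in LGE, because all such genes share a rank.

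The running numbers in the peak names also skip values, and this bears on the MGE end of the ranking. The LGE list skipped 59 numbers in 56 stretches between consecutive peaks and the MGE list skipped 33 numbers in 33 stretches, 32 of which overlapped an LGE stretch. MGE peaks lay inside 34 of the 56 LGE stretches, 65 peaks in all. Results that rest on these stretches are given with and without them below.

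Peaks reached 14254 genes in MGE and 14088 in LGE, and 13754 in both (62.7%, Wilson 95% interval 62.1 to 63.3%, which covers counting error only, as do the other intervals given). A further 500 genes were reached in MGE alone, 334 in LGE alone and 7350 in neither. The difference was under 10 percentile points for 17744 genes, and its median size was 2.33 points. Both values include the 7350 genes reached in neither list, whose difference of -0.38 points is fixed by their shared ranks. A difference of 20 points or more was seen for 379 genes on the MGE side (1.73% of all genes) and for 847 genes on the LGE side (3.86% of all genes). The threshold falls within a continuum, with 4931440F15Rik at 20.0005 and Daam1 at 19.9982 points on the MGE side, and on the LGE side Npas1 lay just inside at -20.0005 points. Without the genes that start in a stretch of skipped numbers the counts were 358 and 841. With genes ranked by highest −log10 q in place of covered bases they were 919 in MGE and 760 in LGE, so that the larger count was then on the MGE side.

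**Figure D1:**
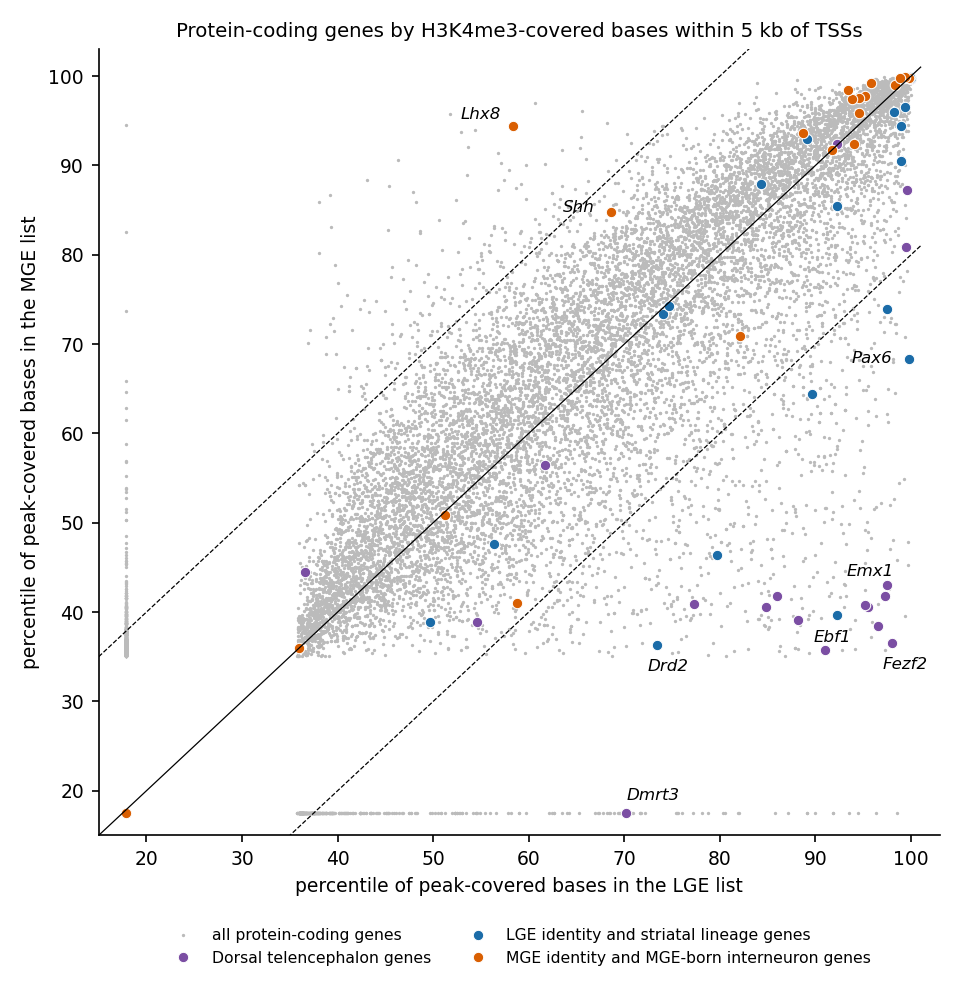
Percentile of peak-covered bases within 5 kb of TSSs in the LGE list (x axis) and the MGE list (y axis) for 21938 protein-coding genes, 1 point a gene, with the solid line at equality and dashed lines 20 points away. Dorsal telencephalon genes fill the lower right, with Fezf2 at 98.0 in LGE and 36.6 in MGE, while most MGE identity genes lie near the line and Lhx8 lies above it.

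The largest block of named genes on the LGE side was that of the dorsal telencephalon. Of 20 genes listed for the pallium and its glutamatergic neurons, 12 were at least 20 points higher in LGE (60%, against 3.86% of all genes) and 0 were as much higher in MGE, and the median difference was -44.2 points against -0.38 over all genes. The list was chosen with earlier results of these data known. Together its members had 53394 covered bases in LGE, 14541 in MGE, 63542 in CGE and 43962 in CTX. The most covered member was Lhx2 in MGE, LGE and CTX and Lhx9 in CGE. In LGE 19 of the 20 members had a peak and Wnt3a had none, and in MGE 18 had a peak while Wnt3a and Dmrt3 had none. The part that cells from the neighbouring pallium have in the LGE list was not tested.

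Several of these genes had a short MGE peak where LGE had one of several kilobases. Fezf2, which specifies deep-layer corticofugal neurons, had 180 covered bases in MGE against 3574 in LGE, with 3905 in CGE and 3644 in CTX. Its LGE peak ran over chr14:12342973-12346546 (GRCm38), and the MGE peak chr14:12344968-12345147 lay inside it. Emx1, the homeobox gene of pallial progenitors, had 495 and 3337 bases, with 3453 in CGE and 2969 in CTX. Its MGE peak began 49 bp downstream of the gene's 5′ end and stopped at 543 bp, whereas the LGE peak ran from 370 bp upstream to 2966 bp downstream. MGE was the low list for both genes, and the other 3 lists all had broad coverage.

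The proneural and early neuronal factors followed the same order. Neurog2, the proneural factor of pallial progenitors, had 340 bases in MGE and 2123 in LGE. Eomes, a marker of intermediate progenitors, had 445 in MGE and 2831 in LGE. Tbr1, a factor of early-born cortical neurons, had 429 in MGE and 2878 in LGE. Dmrta2, which patterns the dorsomedial pallium, had 297 and 3117, and its relative Dmrt3 had 0 and 1460. These 5 genes lay between -49.1 and -58.2 points, and at each of them CGE and CTX were above MGE as well.

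Genes of glutamatergic neurons were also broader in LGE. Slc17a6, which encodes a vesicular glutamate transporter, had 541 bases in MGE against 3412 in LGE, with 5574 in CGE and 851 in CTX, and its relative Slc17a7 had 452, 1657, 790 and 681. The neuronal bHLH genes Neurod2 (-55.2 points), Neurod1 (-44.2) and Bhlhe22 (-44.2) completed the 12. With genes ranked by −log10 q the direction turned to MGE at Bhlhe22, Slc17a7 and Dmrta2. Among those 12, which were chosen by this difference, the covered bases ran from 0 to 541 in MGE and from 1460 to 3574 in LGE, and over all 20 members the ranges overlapped, from 0 to 3718 in MGE and from 0 to 7555 in LGE. Over all 20 the CTX percentile was above that of MGE for 19 and above that of LGE for 11. The remaining 8 members lay between -18.7 and 7.97 points. Emx2 (1359 bases in MGE and 4839 in LGE) and Lhx9 (1594 and 5158) were on the LGE side without reaching 20 points. Lhx2, the most covered of all genes in CTX, had 3718 and 7555 and ranked above percentile 99 in both, and Wnt8b was 7.97 points higher in MGE.

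The promoters of 3 of these genes and of a pair of MGE genes are shown because the lists part there. Each sequence is the RefSeq promoter (GRCm38.p6) from 250 bases before to 50 after the start, 5′ to 3′ on the gene's strand, with CpG dinucleotides in capitals. The promoters of Fezf2 (chr14:12345816-12346115, minus strand), Neurog2 (chr3:127632886-127633185, plus strand) and Eomes (chr9:118477939-118478238, plus strand) lay under an LGE peak for 300 of 300 bases and under an MGE peak for 0. The promoter of Lhx8 (chr3:154330511-154330810, minus strand) had 115 bases under an MGE peak, bases 186 to 300, and 0 under an LGE peak. That of Nkx2-1 (chr12:56536859-56537158, minus strand) had 65 bases under an MGE peak, bases 236 to 300, and 0 under an LGE peak.
Fezf2: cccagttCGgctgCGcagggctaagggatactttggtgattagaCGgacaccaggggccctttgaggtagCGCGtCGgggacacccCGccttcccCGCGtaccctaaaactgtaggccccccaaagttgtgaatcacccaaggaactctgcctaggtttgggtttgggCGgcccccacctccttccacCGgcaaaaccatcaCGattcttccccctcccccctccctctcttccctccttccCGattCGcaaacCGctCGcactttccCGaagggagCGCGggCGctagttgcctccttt
Neurog2: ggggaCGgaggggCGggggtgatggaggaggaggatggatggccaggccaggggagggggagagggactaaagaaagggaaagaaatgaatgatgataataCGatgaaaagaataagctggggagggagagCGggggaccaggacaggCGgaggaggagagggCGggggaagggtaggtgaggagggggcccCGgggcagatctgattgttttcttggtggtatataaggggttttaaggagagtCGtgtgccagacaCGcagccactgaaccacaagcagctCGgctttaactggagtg
Eomes: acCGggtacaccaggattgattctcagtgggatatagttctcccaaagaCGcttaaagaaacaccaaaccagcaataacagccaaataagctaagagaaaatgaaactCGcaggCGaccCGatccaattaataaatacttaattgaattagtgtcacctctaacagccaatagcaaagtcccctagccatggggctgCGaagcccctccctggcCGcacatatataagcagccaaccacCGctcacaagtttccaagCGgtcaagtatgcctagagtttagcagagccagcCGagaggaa
Lhx8: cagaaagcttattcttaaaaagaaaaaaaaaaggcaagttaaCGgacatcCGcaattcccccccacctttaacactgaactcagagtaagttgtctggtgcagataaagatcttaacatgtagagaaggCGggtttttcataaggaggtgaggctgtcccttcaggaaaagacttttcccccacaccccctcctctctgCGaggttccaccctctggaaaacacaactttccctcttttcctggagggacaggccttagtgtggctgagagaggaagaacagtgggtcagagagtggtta
Nkx2-1: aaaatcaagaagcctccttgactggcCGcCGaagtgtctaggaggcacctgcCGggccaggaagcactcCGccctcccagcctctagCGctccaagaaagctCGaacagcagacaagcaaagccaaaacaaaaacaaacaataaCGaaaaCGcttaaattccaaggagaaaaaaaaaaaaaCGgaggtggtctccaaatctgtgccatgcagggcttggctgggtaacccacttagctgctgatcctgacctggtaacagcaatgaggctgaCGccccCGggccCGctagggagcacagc
Fezf2 holds 20 CpGs, Neurog2 10, Eomes 10, Lhx8 4 and Nkx2-1 12. The observed number of CpGs over that expected from base composition was 0.74 for Fezf2 and 0.24 for Lhx8. Of the 18 dorsal telencephalon genes with a RefSeq promoter, 10 promoters lay wholly under LGE peaks and 4 wholly under MGE peaks, and 10 had no base under an MGE peak against 7 under an LGE peak.

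**Figure D2:**
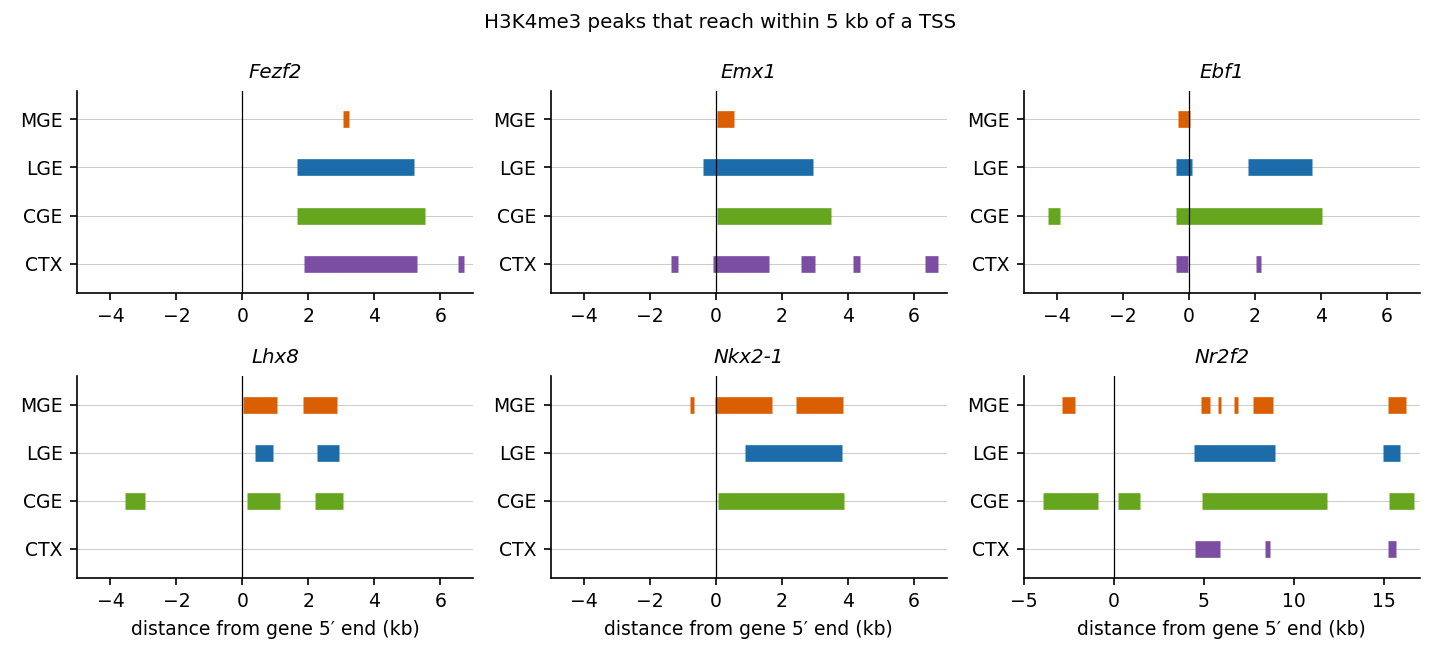
Peaks of the 4 lists (rows) that reach within 5 kb of a TSS of 6 genes, placed by distance from the gene's 5′ end in kb (x axis, downstream to the right), with bars drawn to the width of each peak. Fezf2 and Emx1 have short MGE bars inside long LGE bars, Lhx8 and Nkx2-1 have MGE bars that start nearer the 5′ end, and an LGE bar of 4484 bp at Nr2f2 spans 4 MGE bars.

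The difference at dorsal genes was larger in the breadth of peaks than in the rank of the peak caller's score. The −log10 q of a peak, ranked within its list, was at a median percentile of 25.3 in MGE and 31.6 in LGE for the strongest peaks of the 12 genes (11 in MGE, where Dmrt3 had no peak), low in both. The LGE peak of Fezf2 had a −log10 q of 11.96, at percentile 28.5 of its list, and the MGE peak one of 1.99, at percentile 26.8. The gap in this percentile was wider at Neurog2 (13.1 in MGE, 40.5 in LGE) and Eomes (8.35 and 31.6). It was also wider at Emx1 (22.1 and 39.3) and Tbr1 (19.3 and 34.6). At Dmrta2, Neurod1, Bhlhe22 and Slc17a7 the percentile was higher in MGE. With genes ranked by the highest −log10 q in place of covered bases, 1 of the 20 members was 20 points higher in LGE and the median difference was -4.21 points. Over all 847 genes on the LGE side the median percentile of the strongest peak was 27.2 in LGE, against 66.4 over all genes with an LGE peak, so these genes carried wide LGE peaks of low score. On the MGE side likewise, the strongest MGE peaks of the 379 genes had a median percentile of 46.9, against 76.2 over all genes with an MGE peak.

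Genes of the LGE and the striatal lineage were partly on the LGE side. Of 20 members, 6 were at least 20 points higher in LGE (30%, against 3.86% of all genes) and 0 higher in MGE, and the median difference was -5.69 points. Every member had a peak in both lists, and all 20 had more covered bases in LGE, where 13171 of the 21938 genes did. The 21938 include 7350 genes reached in neither list, which cannot differ, so most genes reached at all had more bases in LGE. Ebf1, a factor of striatal projection neurons, had 375 bases in MGE against 2425 in LGE, with 4775 in CGE and 529 in CTX. Both lists had a short peak at its 5′ end, of 375 bp in MGE and 473 bp in LGE, and the LGE list had a second peak of 1952 bp from 1794 bp downstream. Isl1, a LIM homeobox gene of striatal and cholinergic neurons, had 987 in MGE and 2223 in LGE, a difference of -25.2 points. Drd2, the dopamine receptor of indirect pathway neurons, had 165 and 1542 bases, and Rxrg, a retinoid receptor gene, had 636 and 1739. Pax6, expressed in LGE and pallial progenitors alike, had 1062 and 5724, and Zfp503, a striatal zinc finger gene, had 1179 and 3453. At Zfp503 the difference of -23.6 points turned to 8.40 with a window of 2 kb. With genes ranked by −log10 q, 1 of the 20 members was 20 points higher in LGE, and Ebf1, Isl1 and Zfp503 were then between 3.33 and 7.38 points higher in MGE.

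The other 14 LGE genes had differences between -10.7 and 3.83 points. Gsx2, the homeobox factor of LGE progenitors, had 1910 bases in MGE and 2189 in LGE and was 3.83 points higher in MGE. Meis2 (3921 and 8719 bases), Six3 (5226 and 6135) and Foxp1 (4202 and 4483) were above percentile 99 in both. Foxp2, a forkhead gene, had 1752 and 4171 bases and a difference of -8.41 points. Bcl11b, a factor of striatal and corticofugal neurons, had 2056 and 4163 bases and a difference of -4.55 points. The dopamine receptor gene Drd1 (666 and 1167), the neuropeptide genes Penk (329 and 1028) and Tac1 (1186 and 1574) and Ppp1r1b (1517 and 2421), which encodes the striatal phosphoprotein DARPP-32, had differences between -10.7 and -0.37 points.

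MGE identity genes had a median percentile of 95.2 in MGE and 93.6 in LGE. Of 20 members 1, Lhx8, was at least 20 points higher in MGE (5.0%, against 1.73% of all genes) and 0 were as much higher in LGE, with a median difference of 0.76 points. Lhx8, a LIM homeobox gene of cholinergic and ventral MGE cells, had 2066 bases in MGE against 1208 in LGE, with 2490 in CGE and 0 in CTX, a difference of 36.1 points. It had 2 peaks in MGE, 2 in LGE and 3 in CGE. The MGE peaks were 1043 and 1023 bp wide and the LGE peaks 665 and 543 bp, and the MGE peak at the promoter reached to 34 bp from the 5′ end against 395 bp in LGE. Nkx2-1, the homeobox gene that defines the MGE, had 3262 bases in MGE against 2934 in LGE, with 3804 in CGE and 0 in CTX. Its −log10 q was 16.0 in MGE, at percentile 72.2 of the list, and 3.52 in LGE, at percentile 11.4. The MGE peak of 1718 bp began 15 bp upstream of the gene's 5′ end, and the LGE peak of 2934 bp began 887 bp downstream.

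The 19 other MGE and interneuron genes had differences between -17.8 and 16.3 points. Lhx6, a LIM homeobox gene of MGE-derived interneurons, had 3057 bases in MGE against 3711 in LGE, with 5920 in CGE and 451 in CTX and was 0.62 points higher in MGE. Its strongest peak was at percentile 66.8 in MGE and 22.5 in LGE. Sox6 (3966 and 5879), Satb1 (4030 and 4154), Zeb2 (4758 and 4591) and Erbb4 (2835 and 2551), which serve interneuron migration and maturation, all ranked above percentile 93 in both. Gbx1 (457 and 1217) and the neuropeptide gene Npy (1111 and 1827) had differences of -17.8 and -11.2 points. Sst, the gene of somatostatin, had 0 bases in MGE and in LGE and 638 in CGE. Gbx2 (145 and 260 bases) and Mbip (734 and 1061) ranked at percentile 51.3 or lower in both. Of the 20 members 19 had a peak in MGE and 19 in LGE, with Sst the exception in both.

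**Figure D3:**
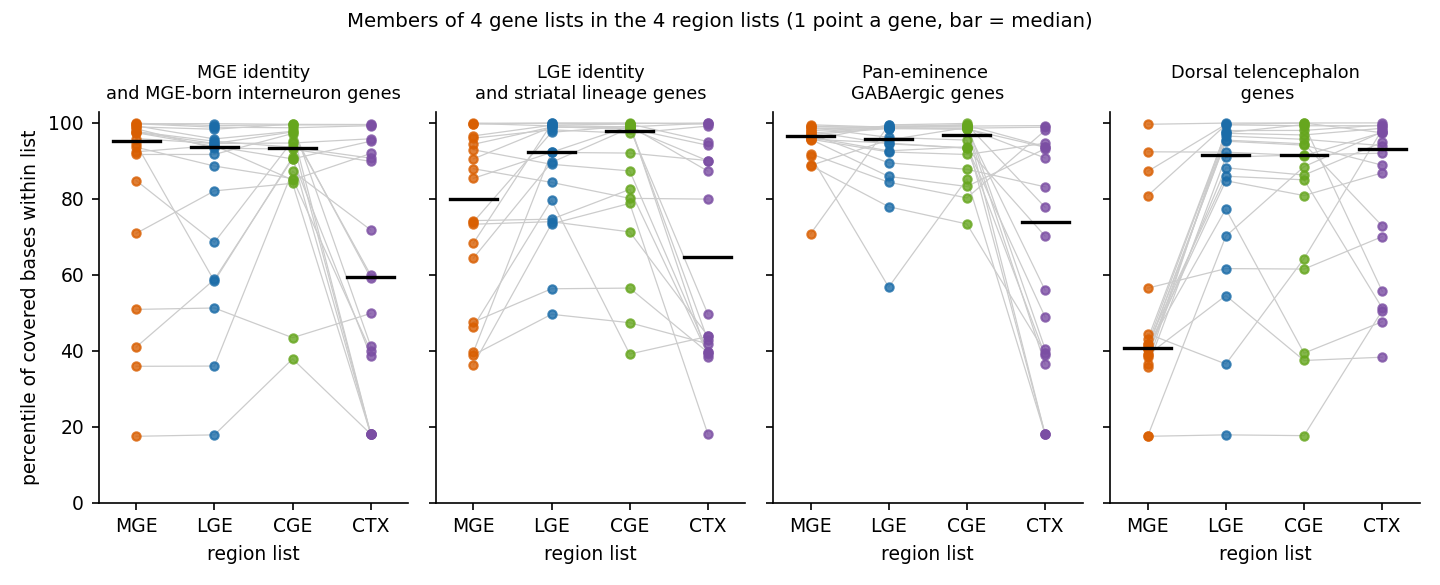
Percentile of covered bases (y axis, 0 to 100) in each of the 4 region lists (x axis) for the 20 members of 4 gene lists, 1 point and grey line a gene, with black bars at the median. The median of dorsal telencephalon genes is 40.8 in MGE and 91.7, 91.5 and 93.0 in LGE, CGE and CTX, while the MGE identity and pan-eminence lists have medians above 93 in the 3 eminences and lower ones in CTX.

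Pan-eminence GABAergic genes were high in both lists, at a median percentile of 96.6 in MGE and 95.8 in LGE against 74.0 in CTX. Dlx1 (2832 and 4003 bases), Dlx2 (2227 and 2734), Dlx5 (2416 and 3808) and Dlx6 (2183 and 4836), the homeobox genes that drive GABAergic identity, had differences between -3.96 and 1.08 points. The Dlx6 bases in MGE were spread over 5 peaks and those in LGE over 2. Gad1 and Gad2, which encode the GABA-synthesizing enzymes, had differences of -6.72 and 3.63 points. Slc32a1, the vesicular GABA transporter gene, had 3022 and 4215 bases and 0 in CTX. Gsx1, a progenitor homeobox gene, was 34.6 points higher in MGE with 1801 and 1176 bases. It had 2 MGE peaks, and the wider, of 1518 bp, had a −log10 q of 1.83 against 2.98 for the other. With peaks under 2 left out the difference at Gsx1 turned to -16.8 points, and with the lists cut to equal size to -15.9 points.

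Genes of the Sonic hedgehog pathway were found on either side. Shh, the ligand, had 1496 bases in MGE against 1417 in LGE, with 3078 in CGE and 0 in CTX, and was 16.3 points higher in MGE. Hhip, the gene of a ligand-binding inhibitor (1432 and 1424), was 14.3 points higher in MGE. The receptor gene Ptch1 (5099 and 4652), the transducer gene Smo (1678 and 2174) and the effector genes Gli1 (2246 and 2721) and Gli3 (2069 and 2636) had differences between 0.22 and 1.32 points. The coreceptor genes Cdon (1129 and 2686) and Boc (1080 and 2114) and the effector gene Gli2 (1536 and 3574) had differences of -22.7, -18.8 and -12.1 points. In all, 1 of 15 members passed 20 points on the LGE side (6.67%, against 3.86% of all genes). On the MGE side 0 did, against 1.73% of all genes, and the median difference was 0.56 points. With genes ranked by −log10 q, 2 of the 15 were 20 points higher in LGE and the median turned to -6.68 points.

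Genes of all neurons and of radial glia served as a comparison. Of 14 pan-neuronal genes, 2 were 20 points higher in LGE (14.3%, against 3.86% of all genes), Dcx with 843 bases in MGE and 2238 in LGE and Snap25 with 1028 and 2209, and the median difference was -1.26 points. Of 11 radial glia genes, 2 (18.2%) were 20 points higher in LGE, Pax6 and the glutamate transporter gene Slc1a3 (893 and 1945), with a median of 2.00 points. By −log10 q 1 of the 11 was, and the median turned to -3.14 points. Nes, Sox9, Notch1 and Vim had differences between -0.99 and 3.79 points. Of 16 ubiquitous genes, 1 (6.25%), Tbp with 908 and 1904 bases, was 20 points higher in LGE. With genes ranked by −log10 q the direction turned at Dcx (3.49 points higher in MGE), Slc1a3 (0.757) and Tbp (6.87). More bases were covered in LGE than in MGE for 11 of 11 radial glia genes, 11 of 14 pan-neuronal genes and 13 of 16 ubiquitous genes, so that a higher LGE count of bases was general and the ranks carry the comparison.

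Coverage around gene 5′ ends showed the same contrast in width. Among the 13754 genes reached in both lists, 78.6% were under an MGE peak and 81.6% under an LGE peak at the 5′ end itself, and 21.3% and 38.3% were 1 kb downstream. Among the 847 genes on the LGE side, 40.1% were covered in MGE and 68.8% in LGE at the 5′ end, and 1 kb downstream 6.26% and 49.5%. Among the 379 genes on the MGE side the shares at the 5′ end were 50.4% and 33.8%, and 1 kb downstream 19.8% and 16.6%. For the 20 dorsal telencephalon genes 50% were still covered 2 kb downstream in LGE and 0% in MGE.

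**Figure D4:**
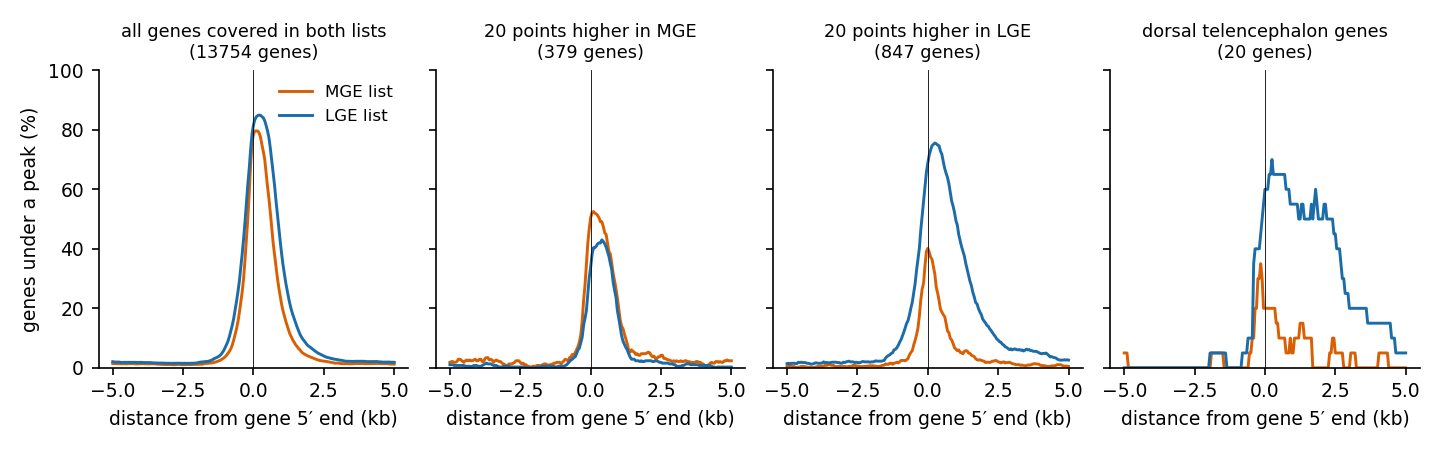
Share of genes under a peak (y axis, percent) by distance from the gene's 5′ end (x axis, kb, downstream to the right) in the MGE and LGE lists, for 4 sets of protein-coding genes. The sets of 379 and 847 genes were chosen by covered bases in the same lists, so their offset is a description, and the LGE curve of the dorsal genes stays at 50% at 2 kb while the MGE curve is at 0%.

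The genes at the far LGE end had LGE peaks and 0 covered bases in MGE. Uncx, a paired-type homeobox gene, led with 3886 bases in LGE, 3961 in CGE and 0 in MGE and CTX, a difference of -81.1 points. It was followed by Lin28a, which encodes an RNA-binding protein of early progenitors (3054 bases in LGE), Pcdhga12, a clustered protocadherin gene, and Cbln4, the gene of a synaptic organizer (2558 bases). Tfap2c, the gene of the factor AP-2 gamma, had 2383 bases in LGE, 2361 in CGE, 2430 in CTX and 0 in MGE. Then came Rxfp3, a relaxin receptor gene, Col8a2, a collagen gene, and Chat with Slc18a3, which encode the enzyme and the vesicular transporter of acetylcholine and share 1 LGE peak of 2188 bp. Dhh, a hedgehog ligand gene, and Cntn5, a contactin gene, closed this end, at -69.6 and -68.2 points. With a window of 2 kb the difference at Dhh was 0.0593 points.

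Coverage in CTX differed among these genes. Tfap2c, Cbln4 and Lin28a had 2430, 1321 and 1103 covered bases in CTX, whereas Uncx, Pcdhga12, Rxfp3, Col8a2 and Cntn5 had 0. Dhh had 244 there, and Chat and Slc18a3 had 125. Of all 847 genes on the LGE side, 824 had a peak in CGE (97.3%, against 64.6% of all genes) and 690 in CTX (81.5%, against 63.8% of all genes). These shares are a description, since each of the 847 genes was chosen with a peak in LGE.

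Among genes reached in both lists the LGE end was led by developmental regulators. Adcyap1, the gene of the neuropeptide PACAP, had 140 bases in MGE and 3335 in LGE, at -61.4 points, next to Fezf2. Barhl2, a homeobox gene, followed with 370 and 4720 bases and -59.8 points, then Nhlh2, a neuronal bHLH gene, at -58.5, and Dmrta2 at -58.2. Apela, the gene of an apelin receptor ligand, was at -57.7, Zic5, a zinc finger gene of the dorsal midline, at -57.0, Lypd3 at -56.9 and Pax5 at -55.6. By −log10 q, Barhl2, Dmrta2, Apela, Lypd3 and Pax5 were between 1.34 and 9.37 points higher in MGE.

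At the far MGE end Stk11, which encodes the kinase LKB1, led with 2073 bases in MGE, 0 in LGE and 2176 in CTX, a difference of 76.7 points. Ube2q2, a ubiquitin-conjugating enzyme gene, had 1414 bases in MGE and 0 in the other 3 lists. Tcfl5, a bHLH gene, had 1173, Lrrc59 1011, Gper1, an estrogen receptor gene, 992, and Fem1b, a ubiquitin ligase gene, 959 in MGE, and each had 0 in LGE. The MGE peak of Tcfl5 had a −log10 q of 1.31, and with peaks under 2 left out the difference there was 1.02 points. Of these 6 genes, Stk11, Ube2q2, Lrrc59 and Fem1b start in a stretch where the LGE numbers skip, so that their LGE value of 0 may stand for a peak that is not in the list used here. Fem1b had a strong MGE peak, with a −log10 q of 46.9 at percentile 94.9 of the list, and 1 in CTX with 67.4. Over the whole MGE side 17 of 379 genes (4.49%) start in such a stretch, against 233 of all 21938 genes, and on the LGE side 2 of 847 (0.236%) start in a stretch where the MGE numbers skip, against 119 of all 21938. Why numbers were skipped was not tested.

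The other genes at the MGE end had peaks in both lists. Bcan, which encodes the matrix proteoglycan brevican, had 1538 bases in MGE against 572 in LGE, with 1929 in CGE and 1184 in CTX, at 47.9 points. Gpr50, on chromosome X, was at 47.5 points, Traf3, a signalling adaptor gene, at 45.3 and 6430550D23Rik at 44.3. Pfkfb4, Mecr, B3gnt9, Ttll9, Cox6b2 and Lxn completed the 10, between 44.1 and 39.6 points. At Traf3 the MGE list had 2 peaks, the wider of 1441 bp, and the LGE list 1 of 858 bp. The LGE peak had a −log10 q of 66.5, at percentile 66.3 of its list. The strongest MGE peak had one of 9.03, at percentile 60.7. By −log10 q the differences were -15.4 points at Traf3 and -5.39 points at B3gnt9. At Pfkfb4 the MGE promoter peak was 868 bp and the LGE one 1071 bp wide, and the MGE list had another of 1362 bp at a later TSS.

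Promoter peaks in a single list were few and mostly weak. A peak reached the 2 kb upstream of a TSS of 13059 genes in MGE, 13220 in LGE and 12741 in both. In MGE and not in LGE it did so for 318 genes (1.45% of all genes, interval 1.30 to 1.62%), and in LGE and not in MGE for 479 genes (2.18%, interval 2.00 to 2.39%). Of the 318 genes, 137 (43.1%) had an LGE peak within 5 kb of a TSS, and of the 479 genes, 263 (54.9%) had an MGE peak that near. The 326 MGE peaks concerned had a median width of 272.5 bp and a median −log10 q of 1.87, against 926 bp and 16.5 for promoter peaks of genes marked in both lists. The 475 LGE peaks had a median width of 883 bp and a median −log10 q of 5.20, against 1306 bp and 60.6. In CGE a promoter peak was found for 107 of the 318 genes (33.6%) and for 402 of the 479 (83.9%), and in CTX for 130 (40.9%) and 198 (41.3%). Over all 21938 genes the share was 59.5% in MGE and 60.3% in LGE, and it is not given here for CGE and CTX.

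Genes with a promoter peak in LGE alone and no MGE peak within 5 kb included regulators and neuronal genes. Ranked by −log10 q they were Tfap2c (20.6), Mterf1a (19.1), Ddx60 (16.0), Cdhr5 together with the secretin gene Sct (15.2), Tnr (14.9), Gabra5 (12.7), Tmem45a (12.2) and Cbln4 (11.9). Gabra5, which encodes a GABA receptor subunit, had 1 LGE peak, a CTX coverage of 138 bases and a CGE peak with a −log10 q of 68.0. Tnr, the gene of the matrix protein tenascin-R, had a CGE peak with one of 42.7 and none in CTX. All of them also had a peak in CGE.

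Genes with a promoter peak in MGE alone and no LGE peak within 5 kb were led by genes at skipped numbers. They were Dcp2 (−log10 q 31.4), Trappc8 (30.5), Suv39h2 (26.7), Kpna1 (24.0), Stk11 (10.0), Wdr66 (8.64), Ube2q2 (7.00) and Pax9 (6.82). The first 5 and Ube2q2 start in stretches where the LGE numbers skip, and Wdr66 and Pax9 do not. Dcp2, a decapping enzyme gene, and Suv39h2, a histone methyltransferase gene, had CTX peaks with −log10 q of 34.5 and 40.5. Pax9, a paired box gene near Nkx2-1 on chromosome 12, had 165 covered bases in MGE, 0 in LGE, a CGE peak with a −log10 q of 3.35, and 0 in CTX. Of the 181 genes of this kind 9 (4.97%) start in a stretch of skipped LGE numbers, against 233 of all 21938 genes, and with the genes that start in skipped stretches of either list left out the count of 318 was 307.

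Peak by peak, nearly all LGE peaks met an MGE peak, and fewer MGE peaks met an LGE peak. Of the 17284 LGE peaks 15977 shared a base with an MGE peak (92.4%, interval 92.0 to 92.8%), and of the 25339 MGE peaks 16894 shared one with an LGE peak (66.7%, interval 66.1 to 67.2%). The lists had 14.6 Mb in common, 85.4% of the MGE bases and 67.7% of the LGE bases. The share of MGE peaks with no LGE base fell with rank. With the list split by −log10 q into 4 bins of nearly equal size, it was 84.4% in the lowest bin, 43.9% in the second, 4.82% in the third and 0.158% in the highest, where 10 peaks of 6335 had none. In LGE it was 29.1%, 1.18%, 0% and 0%. MGE peaks with no LGE base were narrow, with a median of 179 bp, and 67.6% of them lay over 5 kb from any TSS. Of the 7006 MGE peaks narrower than the narrowest LGE peak, 5842 had no LGE base.

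Distal MGE peaks of this kind were found near MGE genes and elsewhere. Within 100 kb of the 5′ end, 13 of 20 MGE identity genes and 13 of 20 pan-eminence genes had an MGE peak over 5 kb from any TSS with no LGE base (65.0% each), against 36.2% of all genes. The share was 35.0% for LGE genes, 45.0% for dorsal telencephalon genes and 72.7% for 11 radial glia genes. Nkx2-1 had 6 such MGE peaks and 0 LGE peaks, and Lmo1, a LIM-domain cofactor gene, had 10 and 0. Distal LGE peaks with no MGE base were near 8 of 20 pan-eminence genes (40.0%), 7 of 20 dorsal genes, 4 of 20 LGE genes and 2 of 20 MGE genes, against 4.21% of all genes. Among the 8 are the neighbouring pairs Dlx1 and Dlx2, Dlx5 and Dlx6, and Olig1 and Olig2, each within 100 kb of the other, so the same peak can count for both genes of a pair. The same pairs are among the 13 pan-eminence genes with a distal MGE peak, where this holds too. Such LGE peaks were also near 3 of 16 ubiquitous genes (18.8%) and 2 of 11 radial glia genes (18.2%). They were near 3 of 11 preoptic and diencephalic genes (27.3%) and 0 of 14 pan-neuronal genes.

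More MGE peaks lay inside LGE peaks than the reverse. Of the 25339 MGE peaks 11523 lay wholly inside an LGE peak (45.5%, interval 44.9 to 46.1%), and of the 17284 LGE peaks 514 lay wholly inside an MGE peak (2.97%, interval 2.73 to 3.24%). Of the LGE peaks 470 held at least 2 whole MGE peaks (2.72%, interval 2.49 to 2.97%). Among them 438 held 2, 26 held 3, 5 held 4 and 1 held 5. No MGE peak held 2 whole LGE peaks, 0 of 25339, with a Wilson upper bound of 0.0152%. Most MGE peaks could not have held 2, which limits what this count shows. Their median width was 563 bp, whereas LGE peaks were at least 243 bp wide and at least 977 bp apart. The fragmented LGE peaks held 979 whole MGE peaks, with a median width of 525 bp against 868 bp for MGE peaks that were alone inside an LGE peak.

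The share of LGE peaks with 2 or more whole MGE peaks rose with width, and the part of width alone was not tested. Of LGE peaks between 1 and 1.5 kb wide 0.439% held 2 or more MGE peaks, of those between 2 and 3 kb 14.2%, and of the 323 peaks over 3 kb 40.2%. The 470 peaks had a median width of 2457 bp and a median fold enrichment of 3.93, and the 10544 LGE peaks with a single whole MGE peak 1258 bp and 6.09. MGE peaks covered 52.2% of the bases of the fragmented peaks and 69.5% of the bases of those with a single MGE peak. An annotated TSS lay in 437 of the 470 (93.0%) and in 9060 of the 10544 (85.9%).

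**Figure D5:**
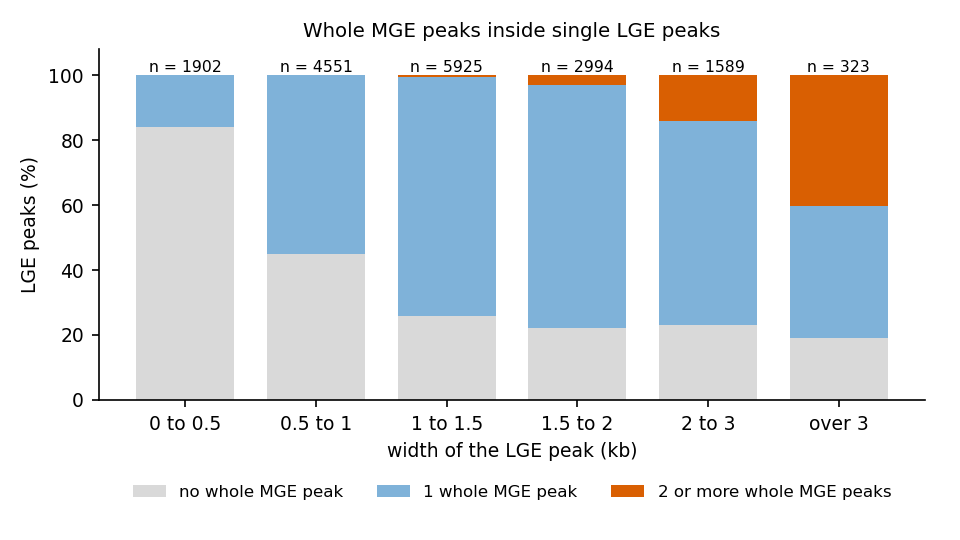
Share of LGE peaks (y axis, percent) that hold no, 1, or 2 or more whole MGE peaks, by width of the LGE peak in kb (x axis), with the number of LGE peaks above each bar. The share with 2 or more rises from 0.439% between 1 and 1.5 kb to 14.2% between 2 and 3 kb and 40.2% over 3 kb.

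The gaps between fragments were short, and most were below what the LGE list resolves. The 509 gaps between neighbouring MGE peaks in 1 LGE peak had a median of 611 bp, with quartiles at 517 and 802 bp. Of these gaps 440 (86.4%, interval 83.2 to 89.1%) were narrower than 977 bp, the smallest distance between any neighbouring LGE peaks, and 69 were at least that wide. With MGE peaks closer than that distance joined, 60 LGE peaks held 2 or more whole MGE peaks, where 470 had done so. A TSS lay in 164 of the 509 gaps (32.2%), and TSSs were less dense in the gaps (0.86 per kb) than in the MGE peaks beside them (2.11 per kb). Other lists nested in the same way. Of LGE peaks 315 held 2 or more whole CTX peaks, and of CGE peaks 551 held 2 or more whole MGE peaks and 36 held 2 or more whole LGE peaks.

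The most divided LGE peaks held 4 or 5 whole MGE peaks. The peak at chr15:96283984-96289031 (5048 bp), over the 5′ ends of Arid2, a chromatin remodeller gene, and the noncoding 2610037D02Rik, held 5 MGE peaks that covered 42.3% of it. A peak of 6326 bp at Bahcc1 and Gm11772 held 4 that covered 46.6%. A peak of 4985 bp at the bromodomain gene Brd2, with H2-DMa and CR974462.3, held 4 that covered 55.0%, and 1 of 4667 bp at the noncoding C130071C03Rik and Gm26803 held 4 that covered 38.1%. The peak of Nr2f2, the gene of COUP-TFII, at chr7:70357775-70362258 (4484 bp), held 4 that covered 43.9%, between 156 and 1117 bp wide. A sixth peak with 4, at chr5:142813089-142817242 (4154 bp), held no annotated TSS.

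Members of the gene lists were also among the divided peaks. The LGE peaks of Lhx2 (5689 bp), Nr2f1 (4598 bp), Bcl11b (4163 bp) and Sp8 (3649 bp) each held 3 MGE peaks, and those of Emx2 (4839 bp), Meis2 (4400 bp), Pax6 (3179 bp), Sox9 (3671 bp), Tubb3 (3537 bp), Hes5 (3986 bp), Sufu (3103 bp), Ywhaz (2460 bp) and Dcx (2238 bp) each held 2, as did 2 of the 3 LGE peaks of Myt1l (1993 and 1431 bp). MGE peaks covered 28.1% of the Emx2 peak, 34.0% of the Lhx2 peak and 72.9% of the Sox9 peak. Lhx2, Nr2f1 and Nr2f2 had differences of -0.32, -0.07 and -0.07 points, but they ranked above percentile 99 in both lists, where a large change in bases moves the rank little (3718 and 7555 bases at Lhx2). Pax6 was at -31.4 and Dcx at -33.4 points.

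The promoters of the ends were compared in base composition as a description, with no test. Over 300 bases from 250 before the gene's 5′ end, read from the GRCm38.p6 assembly for all 21938 genes, the median GC content was 57.0% for the 379 genes on the MGE side, 59.3% for the 847 on the LGE side, 60% for genes reached in both lists and within 20 points and 55.0% over all genes. The observed over expected CpG was 0.49, 0.61, 0.73 and 0.52 in the same order. For genes with a promoter peak in MGE alone it was 0.36, and for those in LGE alone 0.48. The homeodomain core TAATTA, searched on both strands, was in 1.58% of the promoters on the MGE side and 3.42% of those on the LGE side, against 5.30% of all promoters. The GC box GGGCGG was in 47.2% and 54.2%, against 43.0% of all, and the TATA box TATAAA in 12.4% and 11.2%, against 12.7% of all. In genes reached in both lists and within 20 points the shares were 2.68% for TAATTA, 60.4% for GGGCGG and 7.03% for TATAAA, so that the GC box was less frequent at both ends than in these genes and more frequent than in all genes. These are matches of letters in a fixed window and not sites.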

How the data were processed

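H3K4me3 was profiled by CUT&Tag in mouse MGE, LGE, CGE and cortex. Per the labels and the study's methods, the authors aligned reads with Bowtie2 to GRCm38 (mm10), merged the replicates of a region with SAMtools, removed duplicates with Picard and called broad peaks with MACS, of which neither the version nor the threshold is given in the sources used here. Each deposited list holds, per peak, a score, which equals the whole-number part of 10 times the −log10 q and was not used. The deposited fold enrichment is a ratio of reads to the caller's background. The deposited −log10 q is the caller's and is not comparable between lists of unequal depth, so that it was ranked within a list. The deposited lists hold no read counts, and read depth enters in words only.

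Peaks were joined to 21938 protein-coding genes of GENCODE M21 (13 mitochondrial genes were left out) with Python 3.11.15, numpy 2.4.6 and pandas 2.3.3. Covered bases within 5 kb of any TSS were ranked with ties averaged and scaled from 0 to 100. A promoter was the 2 kb upstream of any TSS, and 1 shared base counted as overlap. Intervals are Wilson 95% intervals (scipy 1.17.1). Named were the 10 genes at each end, the 10 at each end with peaks in both lists, the 8 per list with the strongest lone promoter peak, the 5 LGE peaks with most whole MGE peaks, and list members, some of which are not reported here. Members and lists were chosen with earlier results of these data known. With 1 merged list per region no test was made, and replicates could not be compared. The code was tested on simulated data, where 199 of 200 planted genes were recovered with 0 others. The simulated pair was the MGE values and a copy with small noise, in which the planted genes were lowered. No difference in grain was simulated, so this checks the code and gives no error rate for the real lists. The alternatives tried changed the window, the TSSs, the minimum −log10 q, the list size, the joining of peaks, the genes ranked, the measure, the chromosomes, the threshold in points and the definition of a lone promoter peak or of an inner peak.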

Additional observations from a re-analysis of the deposited data

Results flagged for a closer look

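Peaks lay on the mitochondrial chromosome, which carries no histones and was left out of the gene comparison. They covered 10257 bases of it in the MGE list and 9105 bases in the LGE list, in 4 peaks each, and were noted because they fall outside the main measurement. No control library was analysed here, so that these values have no background of their own.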

How the results depend on the processing

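No paired analysis was possible because the authors merged the replicates of a region before calling peaks, and for the same reason no replicate could be left out. The cause of each change below was not tested, except where the alternative itself is narrower. With percentiles over genes reached in either list, 882 genes were 20 points higher in MGE and 1303 in LGE. At 10 points the counts were 2155 and 2039, and at 30 points 71 and 375. With genes ranked by highest −log10 q, 919 genes were 20 points higher in MGE and 760 in LGE, and 84 of the 379 and 118 of the 847 genes were shared with the ranking by covered bases. Under that ranking 1 of 20 dorsal genes and 1 of 20 LGE genes were 20 points higher in LGE, while the dorsal count was between 11 and 14 under the others run at 20 points. MGE identity genes 20 points higher in MGE numbered 2 with genes reached in either list, 2 by −log10 q, and 2 at 10 points, where Gbx1 and Npy were on the LGE side. In LGE 1 was 20 points higher at a −log10 q of at least 2, with lists of equal size and with genes reached in either list, and 0 under the others run at 20 points. These list counts were added after seeing the data. Genes with a promoter peak in MGE alone numbered 162 at a −log10 q of at least 2, 127 with lists of equal size and 181 with no LGE peak within 5 kb, and those in LGE alone 872 with lists of equal size and 216 with no MGE peak within 5 kb. LGE peaks with 2 or more inner MGE peaks numbered 778 where 50% of the inner peak had to lie inside, 60 with close MGE peaks joined and 312 without MGE peaks narrower than the narrowest LGE peak, the last pair of settings chosen after seeing the data. MGE peaks with 2 or more inner LGE peaks numbered 1 with the 50% rule and 1 with close peaks joined. The share of MGE peaks inside an LGE peak was 65.4% with the 50% rule, 58.8% at a −log10 q of at least 2, 61.6% at equal size, 44.0% with close peaks joined and 58.7% without narrow peaks.

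Single genes changed direction mainly with −log10 q. The difference was then -15.4 points at Traf3, -5.39 at B3gnt9, 4.73 at Barhl2, 1.34 at Dmrta2, 9.34 at Apela, 1.51 at Lypd3 and 9.37 at Pax5. It was 7.38 at Ebf1, 3.33 at Isl1, 5.47 at Zfp503, 0.757 at Slc1a3, 6.87 at Tbp, 5.46 at Bhlhe22, 0.542 at Lhx5, 3.87 at Slc17a7, 0.852 at Esam and 3.49 at Dcx. With a window of 2 kb it was 0.0593 at Dhh and 8.40 at Zfp503. Without peaks under a −log10 q of 2 it was -16.8 at Gsx1 and 1.02 at Foxb1, and with lists of equal size -15.9 at Gsx1. Read depth is not in the lists, so its part in these values was not tested. Of the MGE peaks in the lowest of 4 bins by −log10 q 84.4% had no LGE base.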

Other observations

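Of 11 genes of neighbouring diencephalic and preoptic territories, 3 were at least 20 points higher in LGE (27.3%, against 3.86% of all genes) and 1 in MGE (9.09%, against 1.73%). Otp, a homeobox gene of hypothalamic neurons, had 538 bases in MGE against 2201 in LGE, with 2542 in CGE and 0 in CTX. Foxb1 had 126, 1602, 1427 and 0 bases, with an LGE −log10 q of 1.88, and Lhx5, a LIM homeobox gene, had 654, 1832, 5839 and 159. Dbx1, a homeobox gene of the pallial border and the preoptic area, had 275 bases in MGE and 0 in LGE, at 20.2 points, just past the threshold, and between 0.0593 and 22.9 points under the alternatives. By −log10 q 0 of the 11 were 20 points higher in LGE. Nkx2-2 (318 and 1014 bases) and Rax (162 and 290), which mark ventral and hypothalamic progenitors, had narrow peaks in both. The part of neighbouring tissue in these values was not tested.

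For the counts below, the share of all protein-coding genes with a peak was 65.0% in MGE and 64.2% in LGE. Of 12 microglial genes, Spi1 had 840 bases in MGE and 1155 in LGE and the other 11, Csf1r, Cx3cr1 and P2ry12 among them, had 0 in both. Of 12 endothelial genes 7 had a peak in MGE and 6 in LGE, with Cdh5, Tek and Tie1 at 0 in both, while Foxq1 (1144 and 2298 bases) and Kdr (1117 and 1228) had wider peaks and Esam was at -31.0 points. Pecam1, the endothelial gene reached in MGE alone, had 124 bases there under a peak with a −log10 q of 1.05. Of 12 meningeal genes 7 had a peak in each list, the widest at Prrx1 (1327 and 2416 bases) and Foxc1 (1127 and 1448), and Msx1 was at -33.4 points with 0 bases in MGE and 1052 in LGE. Of 8 erythroid genes 4 had a peak in MGE and 2 in LGE, and Gata1 had none. Of 8 CGE genes, Calb2, the gene of the calcium-binding protein calretinin, was at -20.2 points with 0 bases in MGE and 518 in LGE, just past the threshold, and between -21.4 and -5.13 points under the alternatives. Htr3a, a serotonin receptor gene, was just short of it on the other side, at 19.3 points with 213 and 0 bases.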
